A study of Mus musculus with 36 samples.

Results

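Brown adipose tissue of old and young mice was compared on 12 Illumina MouseWG-6 v2 bead arrays, out of 36 arrays in the series. The 12 arrays are those whose labels name brown fat as the tissue, 6 from young and 6 from old animals, and 12 arrays each of inguinal white fat and of liver make up the rest. All mice were male C57BL/6 (strain C57BL/6J in the sample labels), fed chow without restriction. The young group was 5 months and the old group 24 months of age. Mice of both ages had been moved to constant dim red light 5 days before harvest, so no group of the study was kept under a light cycle at harvest. Tissue was taken at 0, 4, 8, 12, 16 and 20 h, and each combination of age and time has 1 array, which the labels give as 3 mice. The labels do not say whether the RNA of the 3 mice was pooled, so the p-values below measure the spread between arrays and not the spread between single animals.

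Brown fat burns fatty acids to make heat. Its adipocytes are packed with mitochondria that carry Ucp1, an uncoupling protein that lets protons back into the matrix without making ATP, and sympathetic nerves drive the process through beta-adrenergic receptors, cyclic AMP and lipolysis. Brown fat becomes whiter with age in mice, and it holds nerves, vessels, macrophages and other immune cells beside its adipocytes. Bulk RNA of the depot mixes all of these, so fewer cells of a type and less RNA per cell cannot be told apart in any result that follows.

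The defining markers were high on all 12 arrays. The intensity of Ucp1 on the 12 brown fat arrays ran from 17941 to 28584, with a median of 20183, whereas it lay above background on 6 of 12 inguinal fat arrays, with 228 as the highest, and on 0 of 12 liver arrays. Fabp3, a fatty acid binding protein of oxidative tissues, ran from 12400 to 19435 in brown fat. In inguinal fat Fabp3 ran from 16.7 to 6952, with a median of 53.7, and in liver it read at most 645. Kng2, a kininogen, ran from 2376 to 5105 in brown fat and from 13.5 to 37.9 in inguinal fat, but from 4629 to 6215 in liver, so it separates brown fat from white fat only. None of the 3 markers changed past the threshold with age. The log2 difference, old minus young, was -0.11 ± 0.10 (SE) for Ucp1 (limma, adjusted p = 0.878), 0.18 ± 0.12 for Fabp3 (adjusted p = 0.817) and -0.02 ± 0.15 for Kng2 (adjusted p = 0.994).

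Transcripts of neighbouring tissue were present. Of 33 skeletal muscle genes with a probe, 32 or 33 lay above background on every brown fat array. Keratin Krt14, a marker of epidermis, lay above background on 4 of 12 arrays, at 284 on the young 8 h array and at 165, 787 and 282 on the old 4, 12 and 20 h arrays. Albumin lay below background on all 12. The young 20 h array stood apart in lymphocyte transcripts. The T cell receptor chain gene Cd3e read 322 there and 8.32 to 46.7 on the other 11 arrays, and Fcmr, an Fc receptor of B cells, read 1384 against 3.51 to 80.0. The summed intensity of 16 B and plasma cell genes was 4280 on that array, with 14 of the 16 above background, against 92.3 to 161 on the other young arrays and 227 to 492 on the old arrays. The summed intensity of 23 T and NK cell genes was 5003 there and 1654 to 2701 elsewhere, and most of the lower values came from Cd8b1, which read 1250 to 2266 on every array whatever the other T cell genes did. The young 4 h array had the lowest mean correlation with the other brown fat arrays, 0.968, where the highest was 0.984. Results below are therefore given with the 20 h pair and, where it matters, without the 20 h or the 4 h pair.

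The age comparison asks which transcripts differ between the 24 month and the 5 month depot at the same harvest time. Of 15815 genes tested, 38 were higher in old brown fat past the threshold of an adjusted p of 0.05 (0.240%) and 0 were lower (0%), by limma with harvest time as a block. At an unadjusted p under 0.05, 644 genes were higher (4.07%) and 461 lower (2.91%). Of the 38 calls 18 carry a gene symbol, and 36 of the 38 were higher in old mice at all 6 harvest times. The 6 old values all exceeded the 6 young values for 14 of the 18 named genes, and this held for 0.348% of all genes tested. The 18 were chosen by their change on the same arrays, so this count is a description and adds no support. The median change of all genes was -0.0026 on the log2 scale and 49.4% of them were higher in old mice.

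**Figure D1:**
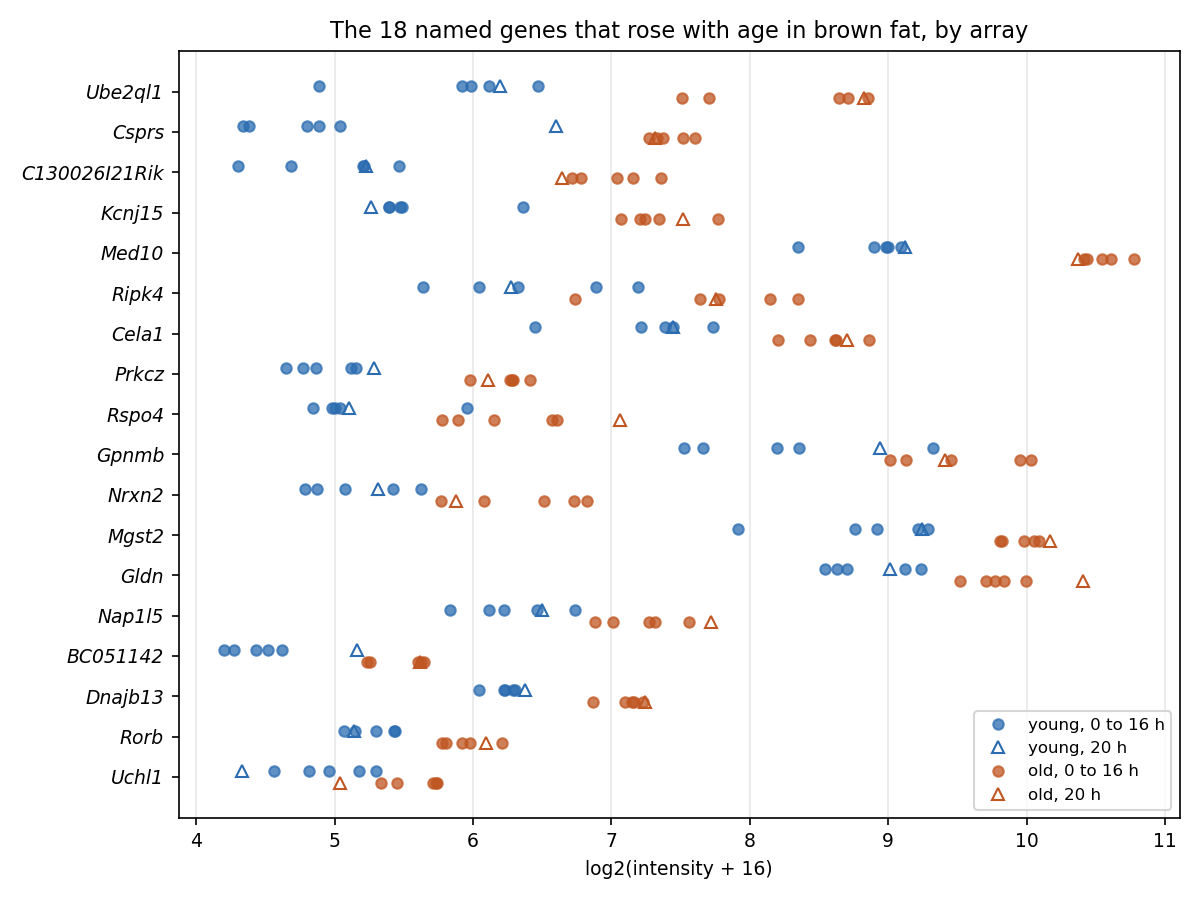
Each point is 1 brown fat array, placed on the horizontal axis by log2(intensity + 16), for the 18 named genes that rose with age (rows, ordered by size of the change); blue is young, orange is old, circles are harvests at 0 to 16 h and open triangles the 20 h harvest. The old arrays lie to the right of all young arrays in 14 genes, and Ripk4, Rspo4, Gpnmb and Uchl1 overlap.

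The largest named rise and the fifth largest were a pair of neighbours on chromosome 13. Ube2ql1 codes for a member of the E2 family, the enzymes that carry ubiquitin to its targets, and its intensity was 13.6, 50.4 and 72.4 (lowest, median and highest) on the young arrays and 166, 393 and 447 on the old arrays. Every old array was higher than every young array, and the change was 2.45 ± 0.15 (SE) on the log2 scale, or 5.45-fold (adjusted p = 0.000222). Med10 codes for a subunit of Mediator, the complex that links transcription factors to RNA polymerase II. It read 310, 493 and 541 on the young and 1309, 1421 and 1740 on the old arrays, again with no overlap, a change of 1.62 ± 0.16, or 3.07-fold (adjusted p = 0.00506). In the RefSeq annotation no other protein-coding gene lies between the pair, and among the 18 named rises they are the 1 adjacent pair. They point away from each other, Ube2ql1 on the minus and Med10 on the plus strand. Within 5 protein-coding genes on either side, 5 others were tested and 0 passed the threshold. Their changes ran from -0.35 for Nsun2 to 0.48 for Irx2, with Adcy2, Tent4a and Ice1 between these.

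The 3 promoter windows that RefSeq lists for this pair (GRCm38.p6, 250 bases before to 50 after the start, 5′ to 3′ on the strand of the gene) are shown because the genes moved together and are transcribed outward from the interval between them. Capitals mark the GC box GGGCGG on either strand, so it reads CCGCCC where it lies on the other strand.
Ube2ql1, chr13:69739848-69740147, minus strand: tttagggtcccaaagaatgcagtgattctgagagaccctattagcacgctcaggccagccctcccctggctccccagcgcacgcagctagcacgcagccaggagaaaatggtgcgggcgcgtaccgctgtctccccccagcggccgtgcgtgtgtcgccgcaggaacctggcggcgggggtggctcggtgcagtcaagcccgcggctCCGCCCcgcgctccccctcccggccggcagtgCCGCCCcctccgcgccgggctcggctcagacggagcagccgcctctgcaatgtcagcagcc
Med10, chr13:69802120-69802419, plus strand: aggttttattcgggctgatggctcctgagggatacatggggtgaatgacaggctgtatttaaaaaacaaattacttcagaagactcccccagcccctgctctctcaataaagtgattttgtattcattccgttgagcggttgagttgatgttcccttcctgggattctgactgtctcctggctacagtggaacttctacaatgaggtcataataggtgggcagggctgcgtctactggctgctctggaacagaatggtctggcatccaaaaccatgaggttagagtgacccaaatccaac
Med10, chr13:69809632-69809931, plus strand: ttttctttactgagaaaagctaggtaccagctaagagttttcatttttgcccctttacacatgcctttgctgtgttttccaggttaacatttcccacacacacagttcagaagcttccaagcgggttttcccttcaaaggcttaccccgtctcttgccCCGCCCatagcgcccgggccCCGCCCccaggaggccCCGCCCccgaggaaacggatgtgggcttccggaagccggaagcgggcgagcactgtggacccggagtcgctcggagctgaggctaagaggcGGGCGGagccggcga

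The Ube2ql1 window holds 30 CpG and 2 GC boxes at 70.7% GC, and the downstream Med10 window holds 20 CpG and 4 GC boxes at 59% GC. The upstream Med10 window holds 4 CpG and 0 GC boxes at 47.3% GC. The median over all 32851 promoter windows is 7 CpG and 52.7% GC, and 35.7% of all windows hold a GC box. The E-box CACGTG, the CCAAT box CCAAT and the TATA box TATAAA, each searched on both strands and none holding another of these motifs, were not found in any of the 3 windows. They occur in 7.15, 37.4 and 13.6% of all windows.

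A pair of rises came from the Sp100 region of chromosome 1. Csprs, a component of the Sp100-rs repeat, read 4.26, 12.7 and 81.1 on the young and 139, 147 and 179 on the old arrays. The 81.1 is the young 20 h array, where the difference shrank to 0.72 on the log2 scale, and it still lay below all old arrays. Csprs was 2.40 ± 0.28 higher (5.26-fold, adjusted p = 0.00917). C130026I21Rik, known by its cDNA clone, read 3.70, 20.99 and 28.1 on the young and 84.2, 105 and 148 on the old arrays. The groups did not overlap, and the change was 1.93 ± 0.15 (adjusted p = 0.00139). Its second probe that passed the filter was higher by 2.61. That probe lay above background on 6 brown fat arrays, the fewest the filter allows, so its change is measured in part against background. Sp100 itself stood at -0.05 and Gm7609 at 0.18 (adjusted p = 0.968 and 0.898). The mouse carries many near-identical copies of Sp100-rs sequence, and which copies these probes bind was not tested, so the 2 genes are uncertain as single loci.

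Genes of signalling, transport and transcription made up a further group of rises. Kcnj15, an inwardly rectifying potassium channel, read 22.5, 27.2 and 66.0 on the young and 118, 141 and 202 on the old arrays, with no overlap, and rose by 1.80 ± 0.19 (adjusted p = 0.00811). Of the 8 inward rectifier genes tested it alone passed the threshold, and the list's median change was 0.02. Prkcz, an atypical protein kinase C that needs no calcium, read 9.02, 15.9 and 22.9 on the young and 47.1, 61.5 and 69.0 on the old arrays. All old arrays exceeded all young arrays and the change was 1.25 ± 0.13 (adjusted p = 0.00811), with 1 of 10 members of the protein kinase C family past the threshold and a family median of -0.07. Rspo4, a secreted R-spondin that strengthens WNT signals, read 12.7, 16.4 and 46.2 on the young and 38.6, 67.1 and 117 on the old arrays. The young 0 h array overlapped the old arrays at 8 and 12 h, and the change was 1.19 ± 0.17 (adjusted p = 0.0257). Of 14 R-spondin and WNT genes tested 9 were higher and Rspo4 alone passed. The secreted WNT antagonist gene Sfrp1 (0.54 ± 0.13) and Dkk3 (0.70 ± 0.18), a member of the Dickkopf family, stood higher at 6 of 6 times without passing (adjusted p = 0.296 and 0.339). Rorb, an orphan nuclear receptor, read 17.5, 21.4 and 27.3 against 38.7, 45.8 and 57.9, without overlap (0.71 ± 0.11, adjusted p = 0.0418).

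Genes best known from nerve and cilia were among the rises as well. Gldn, the gliomedin that Schwann cells place at nodes of Ranvier, read 358, 451 and 588 on the young and 719, 877 and 1340 on the old arrays (0.998 ± 0.15, adjusted p = 0.0342). Nrxn2, a presynaptic adhesion protein, read 11.5, 20.7 and 33.2 against 38.6, 63.4 and 97.4 (1.12 ± 0.15, adjusted p = 0.0201). The groups did not overlap for either gene. Uchl1, a deubiquitinating enzyme abundant in neurons, read 4.09, 13.6 and 23.4 against 16.8, 32.0 and 37.3 and overlapped (0.65 ± 0.10, adjusted p = 0.0428). Dnajb13, a chaperone cofactor of sperm tails and cilia, read 49.9, 60.7 and 66.9 against 101, 126 and 135, with the smallest spread of the 18 (0.88 ± 0.099, adjusted p = 0.00886). The Schwann cell and nerve list did not move as a whole, with 5 of 10 genes higher, a median of 0.03 and 0 past the threshold. Its member S100b stood 0.82 ± 0.21 higher at 6 of 6 times (adjusted p = 0.302), and the myelin genes Pmp22 and Cnp and the glial factor Sox10 stood at -0.24, 0.16 and -0.15.

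Enzymes and other genes complete the named rises. Cela1, an elastase, read 71.4, 155 and 197 on the young and 279, 377 and 448 on the old arrays, with no overlap (1.29 ± 0.16, adjusted p = 0.0150). Mgst2, a microsomal glutathione transferase that also makes leukotriene C4, read 225, 524 and 610 against 882, 1020 and 1136, without overlap (1.10 ± 0.16, adjusted p = 0.0246). The imprinted Nap1l5 read 40.9, 65.3 and 90.7 against 102, 141 and 194 and rose by 0.98 ± 0.14 (adjusted p = 0.0246), without overlap. BC051142 read 2.39, 6.29 and 19.8 against 21.7, 32.7 and 34.0, without overlap (0.96 ± 0.13, adjusted p = 0.0246). It lay above background on 1 of 6 young and 6 of 6 old arrays, so it passed the filter through the old group and its change is measured against background. Ripk4, a kinase needed for the differentiation of epidermis, read 33.7, 62.8 and 130 against 90.6, 202 and 309 and rose by 1.34 ± 0.16 (adjusted p = 0.0136). The young 12 and 16 h arrays exceeded the old 0 h array. The epithelium and gland list holds Ripk4 itself, so the sums and counts of that list are not independent of this gene. Summed over 22 epithelium and gland genes, the intensity was 181 to 656 in young mice and 243 to 1804 in old mice, with 5 to 12 and 8 to 13 genes above background. Krt14, at 3.74 on the old 16 h array, lay below background where Ripk4 was highest, and its part in the result was not tested beyond these values. Of 9 members of that list that passed the filter, Ripk4 among them, 7 were higher, with a median of 0.19.

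The remaining 20 of the 38 calls are probes without a gene symbol in the platform annotation, and they are given by number. The largest change of any called probe was 3.76 ± 0.42 for ILMN_2606313, which read 4.33 to 17.0 on the young arrays at 0 to 16 h, 99.7 on the young 20 h array and 247 to 1019 on the old arrays. ILMN_1251011 followed at 3.38 ± 0.52 and overlapped between the ages, since the young 20 h array read 539 where the other young arrays read at most 38.6. Of the 20 unnamed calls 10 had their smallest difference at 20 h, as had 7 of the 18 named ones. Of the 38 calls 1, an unnamed probe, lay below background on all 6 young arrays, and it was at least 3.25-fold higher in old mice. On 1 of 6 young arrays ILMN_1232948, ILMN_2469743, ILMN_2619428, ILMN_1213431, ILMN_2463573 and ILMN_2490758 lay above background, and on 2 ILMN_1247185 and ILMN_2601053. All of these probes lay above background on 6 of 6 old arrays. They passed the filter through the old group, and their changes are measured largely against background. For 7 of the named genes another probe passed the filter, 9 probes in all, and all 9 were higher in old mice on average. The genes were chosen for their rise, and a dim probe can pass the filter through the old group. The count is therefore a description and adds no support. Probes of C130026I21Rik and Prkcz lay above background on 6 brown fat arrays, the fewest the filter allows. Probes of Kcnj15 and Nrxn2 did so on 8, and the others on 9 or more. Some of the 9 probes did not show the rise or showed a smaller one. Gpnmb had 0.11 ± 0.15 on its second probe, higher at 3 of 6 times. Nrxn2 had 0.097 ± 0.15 on the second, higher at 2 of 6 times, and 1.10 on the third. Kcnj15 had 0.63, and Rorb 0.34 ± 0.20, higher at 4 of 6 times.

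The number of calls moved with the harvest times included. Without the 20 h pair 57 genes passed, all higher in old mice (0.360%), of which 32 were among the 38 and 25 were not. Without the 4 h pair 3 passed, Ube2ql1, C130026I21Rik and Med10, while the changes of the other 15 named genes lay between 0.62 and 2.38 and kept their sign. Gldn, Nap1l5, Rorb and Uchl1 did not pass without the 20 h pair. Without the 0, 8, 12 or 16 h pair 17, 31, 25 and 13 genes passed, and each such fit has 1 residual degree of freedom fewer.

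The 8 named genes that passed only without the 20 h pair were chosen for that reason, so their values at 20 h are given as a description. They are mostly genes of immune cells. Ccl8, a monocyte chemoattractant, stood 1.47 ± 0.43 higher with all pairs (adjusted p = 0.435) and 1.94 ± 0.30 higher without 20 h (adjusted p = 0.0362). The plasma cell gene Mzb1 read 690 on the young 20 h array and 12.2 to 22.9 on the other young arrays, against 58.9 to 145 on the old arrays, and rose by 1.50 ± 0.18 without 20 h (adjusted p = 0.00884). Slpi, an inhibitor of leukocyte proteases, read 828 on the young 20 h array and at most 10.2 on the other young arrays, and 16.7 to 206 on the old arrays, 1.04 ± 0.11 without 20 h (adjusted p = 0.00407). The formyl peptide receptor gene Fpr2 (1.31), the survival factor gene Bcl2a1d (0.91), the Fc receptor gene Fcgr4 (0.84) and the nucleosome binding gene Hmgn3 (0.77) rose without 20 h as well, with adjusted p from 0.0251 to 0.0417, and Fpr2 lay above background on 1 and Slpi on 2 of the 5 young arrays left. The class I gene H2-M2 lay above background on 0 of those 5 and was at least 1.17-fold higher in old mice (adjusted p = 0.0484). At 20 h itself old minus young was below 0 for 6 of the 8, down to -3.16 for H2-M2, and 0.08 for Fcgr4 and 0.38 for Hmgn3. The high lymphocyte transcripts of the young 20 h array moved with these values, and their part was not tested.

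**Figure D2:**
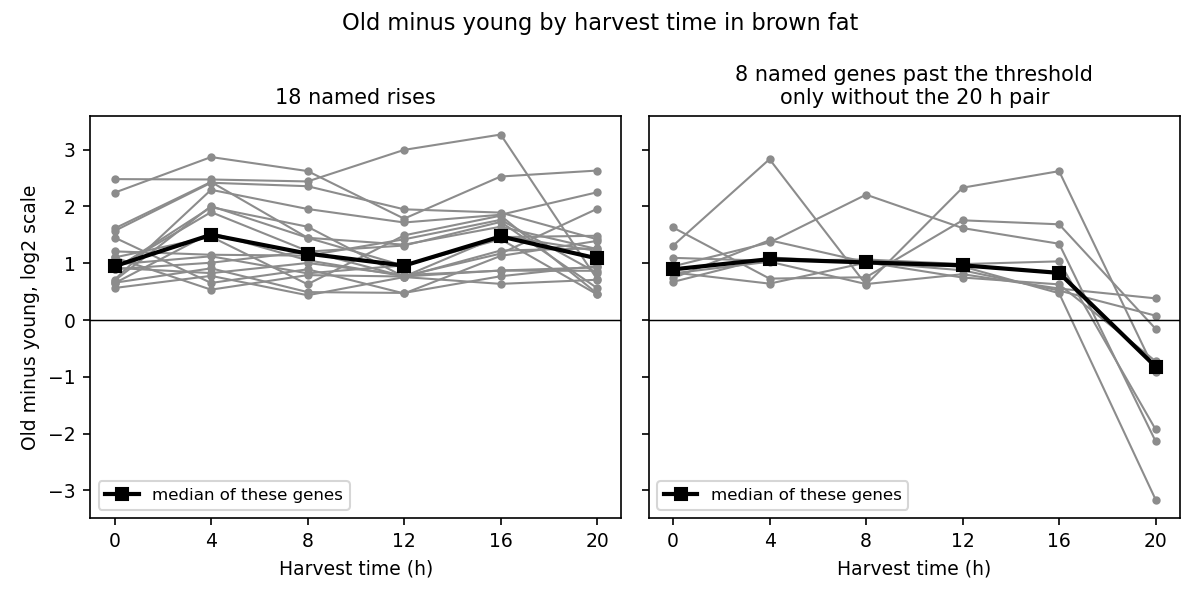
Old minus young on the log2 scale (vertical axis) at each harvest time in h (horizontal axis), 1 grey line for each gene and the median in black, for the 18 named rises (left) and the 8 named genes that passed only without the 20 h pair (right). The 18 stay above 0 at all 6 times, as the rule that chose them requires. On the right 6 of 8 lie below 0 at 20 h, which is where the choice of these genes places them.

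Macrophage genes leaned toward old brown fat as a group. All 30 members tested were higher, with a median change of 0.32 where all genes had -0.0026, 10 of 30 at an unadjusted p under 0.05 and 1, Gpnmb, past the threshold. Gpnmb is a glycoprotein of macrophages that have taken up lipid, and it read 168, 294 and 625 on the young and 501, 675 and 1030 on the old arrays. The young 8 h array overlapped the old ones, and the change was 1.17 ± 0.18 (adjusted p = 0.0370). Lgals3, a lectin of activated macrophages, stood 0.63 ± 0.15 higher, Adgre1, which codes for F4/80, 0.69 ± 0.16 and Trem2, a lipid receptor, 0.89 ± 0.21, none past the threshold (adjusted p = 0.251, 0.251 and 0.259). The direction was not the same at every time. At 4, 12 and 16 h 29, 28 and 29 of the 30 were higher, at 0 and 8 h 19 and 20, and at 20 h 11. Without the 20 h pair all 30 were higher with a median of 0.44, and without the 4 h pair 29 were higher with a median of 0.19. The summed intensity of 38 macrophage genes with a probe overlapped between the ages, at 7315 to 25541 in young mice and 13004 to 20451 in old mice.

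Chemokine and other immune lists were less uniform. Of 23 chemokine and cytokine genes 20 were higher (median 0.22), 8 at an unadjusted p under 0.05 and 0 past the threshold. Ccl4 stood at 0.80 ± 0.15 and Ccl7 at 0.79 ± 0.20, both higher at 6 of 6 times, and the neutrophil attractant gene Cxcl1 at 0.59 ± 0.18 (adjusted p = 0.120, 0.330 and 0.484). Without the 20 h pair 21 of 23 were higher, with a median of 0.42, and without the 4 h pair 15 of 23, with a median of 0.13. Antigen presentation on class II turned on that pair. Of 9 genes 7 were higher with a median of 0.13, the median was -1.15 at 20 h with 0 of 9 higher, without 20 h it was 0.37 with 8 of 9 higher, and without 4 h it was 0.05 with 5 of 9 higher. For T and NK cell genes 5 of 14 were higher (median -0.10) with the pair and 10 of 14 (median 0.20) without it. For B and plasma cell genes these counts were 2 of 7 (-0.16) and 6 of 7 (0.52). The young array of that pair is the one high in lymphocyte transcripts, whose part in these counts was not tested. The interferon list held 15 of 26 higher (median 0.04), and Isg15, a ubiquitin-like modifier, stood at 0.40 ± 0.16 (adjusted p = 0.706).

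**Figure D3:**
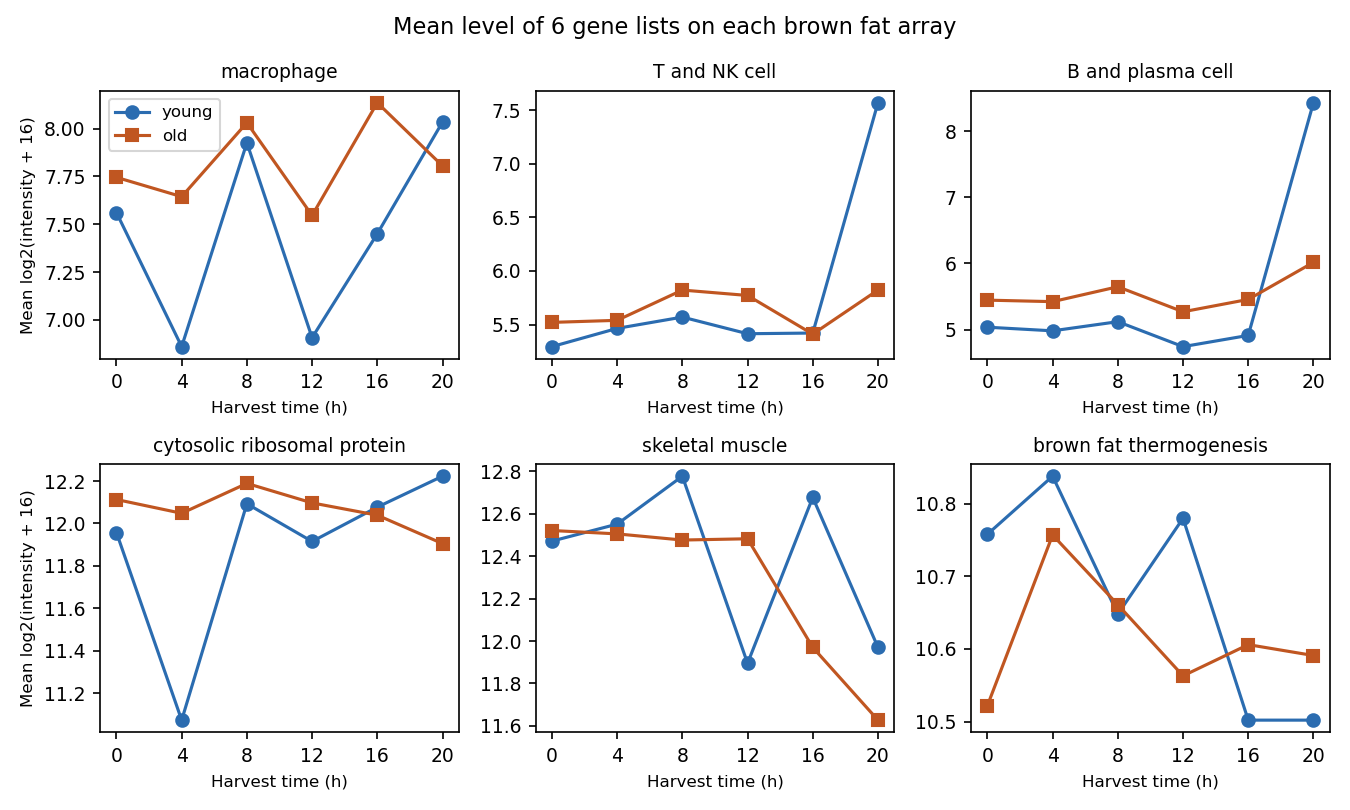
Mean log2(intensity + 16) over the tested members of 6 gene lists (vertical axis) at each harvest time in h (horizontal axis), 1 array per point, young in blue circles and old in orange squares. The T and NK cell and the B and plasma cell lists reach 7.57 and 8.43 on the young 20 h array, and the ribosomal protein list falls to 11.1 on the young 4 h array.

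The heat-producing programme showed no gene past the threshold, and most of its tested members stood lower. Of 26 thermogenesis genes 7 were higher and 19 lower in old mice, with a median of -0.07, and without the 4 h pair 11 were higher with a median of -0.04. The direction varied by time, with 6, 11, 16, 4, 18 and 16 of the 26 higher at 0, 4, 8, 12, 16 and 20 h. At an unadjusted p under 0.05, 2 were lower. Those were Dio2, the deiodinase that makes active thyroid hormone inside the brown adipocyte, at -0.44 ± 0.18, and the purinergic channel gene P2rx5, a brown fat surface marker, at -0.40 ± 0.17 (adjusted p = 0.706 and 0.707). Dio2 read 31.6, 43.8 and 83.2 on the young and 16.0, 34.7 and 45.3 on the old arrays, and the groups overlapped. Ppargc1a, the coactivator that drives mitochondrial genes, stood at -0.23 ± 0.12 and the fatty acid elongase gene Elovl3 at 0.38 ± 0.21 (adjusted p = 0.766 and 0.782). Adrenergic and thyroid signalling had the lowest median of the lists with a pathway name, -0.22, with 2 of 11 higher. The 3 members lower at an unadjusted p under 0.05 were Gnas, Thra and Dio2, the last of which the thermogenesis list holds too. Gnas, the stimulatory G protein below the beta receptors, stood at -0.37 ± 0.14, the thyroid hormone receptor gene Thra at -0.36 ± 0.16, and the adenylyl cyclase gene Adcy6 at -0.24 ± 0.11 (adjusted p = 0.664, 0.712 and 0.719). Without 20 h 0 of these 11 were higher (median -0.25), and without 4 h 1 was higher (median -0.21). By time, 4, 2, 3, 0, 6 and 7 of the 11 were higher at 0, 4, 8, 12, 16 and 20 h.

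Fuel pathways gave small medians. In fatty acid oxidation 4 of 21 genes were higher (median -0.09), and the thiolase gene Acaa2 stood at -0.28 ± 0.14. By time, 6, 2, 8, 4, 20 and 12 of the 21 were higher at 0, 4, 8, 12, 16 and 20 h. Lipolysis and lipid droplet genes were higher in 4 of 18 cases (median -0.07), and at the same times in 6, 4, 10, 4, 12 and 11. The exceptions included Hilpda, a droplet protein that inhibits lipolysis, at 0.39 ± 0.12, and the droplet coat gene Plin3 at 0.35 ± 0.14 (adjusted p = 0.435 and 0.681). In glucose use and insulin signalling 4 of 19 were higher (median -0.07), and at the same times 9, 2, 7, 6, 9 and 13. Hexokinase Hk1 stood 0.85 ± 0.22 higher, whereas Foxo1 (-0.31 ± 0.12), the PI3-kinase subunit gene Pik3r1 (-0.37 ± 0.14) and Akt2 (-0.40 ± 0.15), all of the insulin signal, stood lower, and none of the 4 passed (adjusted p = 0.308 to 0.664). Without the 4 h pair fatty acid oxidation had 8 of 21 higher (median -0.03) and the glucose list 7 of 19 (median -0.02), and lipolysis and lipid droplet genes 8 of 18 (median -0.02). The respiratory chain had 25 of 38 higher (median 0.08), and without 4 h 18 of 38 (median -0.0020). The lists of fatty acid synthesis (6 of 17 higher), cholesterol synthesis (10 of 15), proteasome (13 of 24), senescence and DNA damage (9 of 16) and lysosome (11 of 23) had medians between -0.04 and 0.04, with 0 genes past the threshold. In the senescence list the growth arrest gene Gadd45a stood 0.47 ± 0.12 higher at 6 of 6 times (adjusted p = 0.294) and the cell cycle inhibitor gene Cdkn1a at -0.25 ± 0.12.

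Cytosolic ribosomal protein genes were higher in old mice in 23 of 23 cases (median 0.19), with 0 past the threshold and 0 at an unadjusted p under 0.05. The size of this difference was greatest in the 4 h pair. The median difference was 1.22 at 4 h and between -0.32 and 0.21 at the other times. By time, 20, 20, 17, 23, 10 and 2 of the 23 were higher at 0, 4, 8, 12, 16 and 20 h. Without the 4 h pair 12 of 23 were higher with a median of 0.01, and without the 20 h pair 23 of 23 with a median of 0.30. Rps15, a protein of the small subunit, read 769 on the young 4 h array and 2742 to 3844 on the other 11. White adipocyte genes did not rise as a group (9 of 15 higher, median 0.05), and the imprinted hydrolase gene Mest, which marks expanding fat cells, stood 1.28 ± 0.24 higher at 6 of 6 times (adjusted p = 0.105). Unfolded protein and stress genes were higher in 9 of 26 cases (median -0.12) and antioxidant genes in 19 of 24 (median 0.08), led by the glutathione transferase gene Gsta3 at 0.48 ± 0.14 (adjusted p = 0.440).

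No gene fell past the threshold. The 10 named falls with the lowest p were each lower in old mice at 6 of 6 times, and sarcomere genes stood among them. Zfp619, a zinc finger gene, came nearest. It read 20.6, 23.1 and 25.5 on the young and 7.65, 8.83 and 14.3 on the old arrays, without overlap, at -0.61 ± 0.11 (adjusted p = 0.0792). Tpm3, a tropomyosin of slow muscle fibres, read 4546, 5634 and 7841 against 2864, 3657 and 4751 (-0.65 ± 0.12, adjusted p = 0.105), and Myl3, the slow myosin light chain, stood at -0.60 ± 0.13 (adjusted p = 0.194). Hpd (-0.66) breaks down tyrosine and Adhfe1 (-0.64) is a mitochondrial enzyme that oxidises hydroxybutyrate, with adjusted p = 0.114 and 0.166. The translation factor gene Eif4b (-0.60), the histone methyltransferase gene Ezh1 (-0.46), the talin gene Tln1 (-0.54), the imprinted Peg3 (-0.79) and the collagen gene Col4a5 (-0.70) followed, with adjusted p from 0.206 to 0.231. Zfp619 lay above background on 6 of 6 young but 3 of 6 old arrays, Hpd on 6 and 2, and Tln1 on 6 and 4. Their falls are therefore measured near background. The groups did not overlap for 5 of the 10, Zfp619, Myl3, Tln1, Peg3 and Col4a5, where this held in the lower direction for 0.196% of all genes tested. The 10 were chosen by lowest p on the same arrays, so this count is a description and adds no support. Peg3 read 242 to 618 in young mice and 128 to 234 in old mice. Within the skeletal muscle list 11 of 32 genes were higher (median -0.07), and the 4 members with the lowest p code for proteins of slow fibres: Tpm3, Myl3, the slow myosin gene Myh7 (-1.03 ± 0.24) and the slow troponin gene Tnni1 (-0.44 ± 0.12), with adjusted p = 0.105 to 0.382. The muscle content of the samples varied, and its part in these values was not tested. The number of muscle genes higher in old mice was 25 of 32 at 12 h and 0 of 32 at 16 h, and the summed intensity of the 33 with a probe was 225770 to 391590 in young mice and 203890 to 350310 in old mice.

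To ask which changes were greater or smaller in brown fat than elsewhere, the difference at each time was compared between tissues, which the series' design text describes as dissected from the same animals, so both comparisons share the brown fat arrays. Against inguinal fat 4 of 17115 genes differed in their change with age (0.0234%), all greater in brown fat, and Ube2ql1 and Med10 were the 2 with a symbol. The difference was 2.32 ± 0.20 for Ube2ql1 (adjusted p = 0.0164), which lay above background on 1 of 12 inguinal fat arrays and 2 of 12 liver arrays. It was 1.91 ± 0.21 for Med10 (adjusted p = 0.0467), which lay above background on every array of the 3 tissues and changed by -0.29 in inguinal fat and 0.09 in liver. At an unadjusted p under 0.05, 2539 genes differed between the fat depots (14.8%). Without the 20 h pair 188 genes differed, 164 of them greater in brown fat, and without 1 of the other pairs 0 to 3 did.

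Against liver 59 of 17270 genes differed (0.342%), 14 with the greater change in brown fat and 45 with the greater change in liver, and leaving out 1 pair gave 19 to 31. The rises of Ube2ql1 (2.44), Kcnj15 (1.76), Prkcz (1.60), Ripk4 (1.60), Med10 (1.53), Cela1 (1.18), BC051142 (1.15) and Nap1l5 (1.05) were greater than the value fitted in liver, with adjusted p from 0.00464 to 0.0490. For 4 of these there was little or no signal in liver, where Nap1l5 lay above background on 0 of 12 arrays, BC051142 on 1, Ube2ql1 on 2 and Kcnj15 on 5, so a liver change to set beside the rise was not measured for them. Gpnmb went the other way. It rose by 2.71 ± 0.15 in liver and by 1.17 in brown fat, a difference of -1.54 ± 0.21 (adjusted p = 0.0259). The largest differences toward liver were Cidea at -4.73 ± 0.23 and Cidec at -2.64 ± 0.24, both lipid droplet genes that stood at -0.07 and -0.12 in brown fat, followed by Cyp2b9 (-2.54), Tmem45b (-2.40) and Serpinb1a (-2.20). In brown fat Cidea read 24193 to 30524 on all 12 arrays.

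Other rises of brown fat were shared with another tissue as far as their own fits go. Csprs and C130026I21Rik rose in inguinal fat (2.41 and 3.29) and in liver (1.49 and 1.37), and Kcnj15 (1.40), Cela1 (0.76), Nap1l5 (1.17) and Dnajb13 (0.72) rose in inguinal fat, with adjusted p from 0.000952 to 0.0376. In those fits 4.24% of all genes tested passed in inguinal fat and 4.02% in liver. The difference between brown and inguinal fat for these 6 genes ran from -1.35 to 0.53 and did not pass (adjusted p from 0.162 to 0.977). Rspo4 stood 1.17 ± 0.19 apart from inguinal fat and 1.07 ± 0.21 apart from liver without passing (adjusted p = 0.105 and 0.0801), and it lay above background on 0 and 1 of the 12 arrays there. The change of the other 9 named rises did not differ from inguinal fat past the threshold (adjusted p from 0.105 to 0.506).

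**Figure D4:**
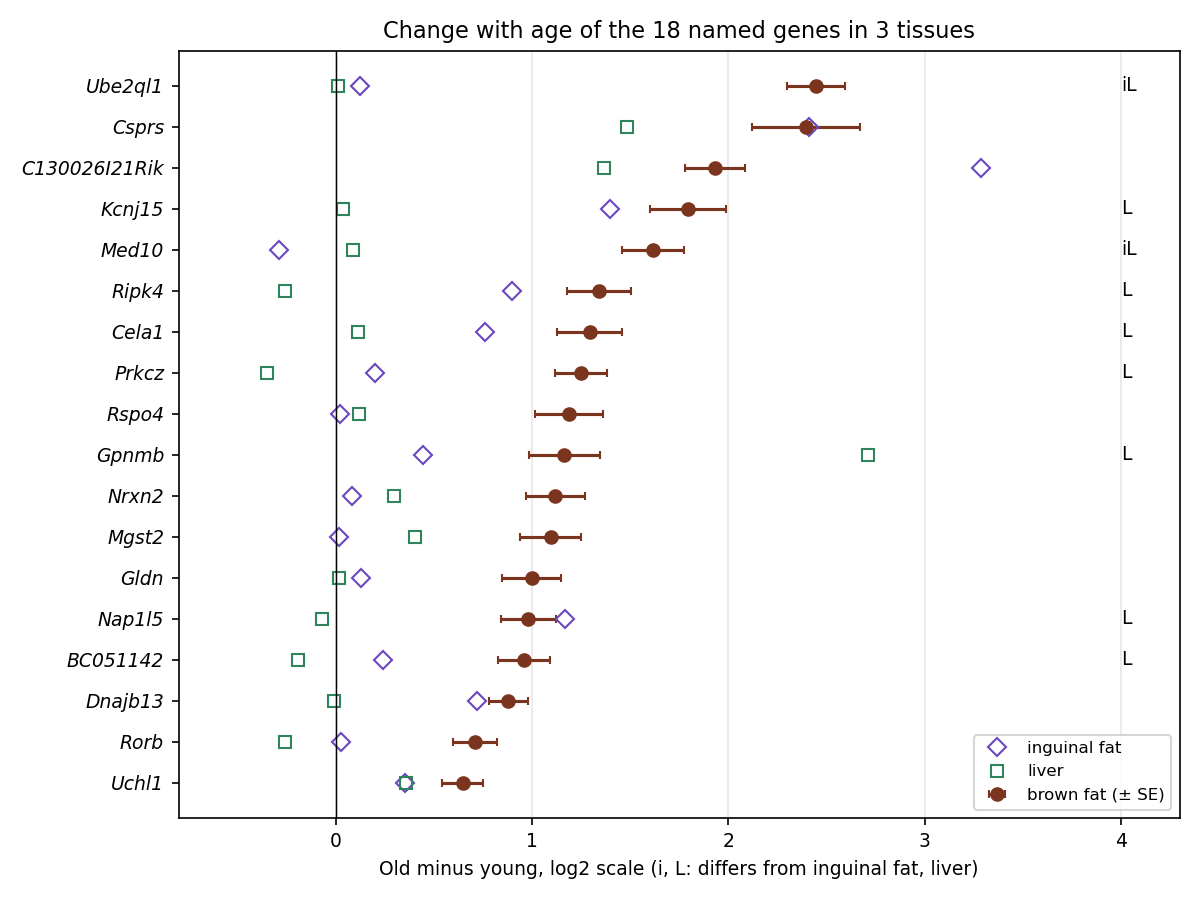
Old minus young on the log2 scale (horizontal axis) for the 18 named rises (rows) in brown fat (filled circles, bars are ± SE), inguinal fat (open diamonds) and liver (open squares), 6 young and 6 old arrays in each tissue; the letters at the right mark an adjusted p under 0.05 for the difference from inguinal fat (i) or liver (L). Ube2ql1 is near 0 in the other tissues, where it had little or no signal (above background on 1 of 12 inguinal fat and 2 of 12 liver arrays). Med10 lies at -0.29 in inguinal fat and 0.09 in liver, and Csprs lies near 2.4 in both fat depots.

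The harvest times allow the daily clock of the depot to be read beside age. The clock is a loop in which Arntl and Clock switch on the Per, Cry and Nr1d genes, whose products switch the loop off. Dbp and Tef follow as outputs. A 24 h rhythm passed the threshold for 35 of 15815 genes (0.221%), or 7 to 25 genes with 1 harvest time left out, and of 24 genes of the clock list 17 were tested and 6 were rhythmic. Dbp had the largest amplitude, 1.92 (log2, mean level to peak), with its peak at 9.38 h, and it read 532 to 6864 in young mice and 660 to 7486 in old mice. Nr1d1 peaked at 5.02 h (amplitude 1.41), Ciart at 10.1 h (1.55), Per3 at 10.9 h (0.91) and Per2 at 13.1 h (1.07), and Arntl at 22.1 h (1.37), opposite to Dbp. Of the 38 genes called for age 0 were rhythmic. Ripk4 came nearest among the named rises, with an amplitude of 0.65 (adjusted p = 0.0581).

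The rhythm did not differ between the ages past the threshold for any gene (0%), with 749 genes at an unadjusted p under 0.05 by limma's F test. Arntl had the lowest p of the 6 rhythmic clock genes for a difference (adjusted p = 0.920). Its fitted amplitude was 1.17 in young and 1.65 in old mice, and it read 29.4 to 208 in young mice and 17.4 to 330 in old mice. Bhlhe40, a repressor in the same loop, read highest on the young array at 12 h (2717) and on the old array at 20 h (3609), with the same adjusted p. The fitted peak was earlier in old mice for 5 of the 6 rhythmic clock genes, by 0.41 h for Dbp to 1.76 h for Arntl, and later by 0.58 h for Per3. With 6 harvest times per age these shifts carry no test of their own beyond the one given. The level of the clock genes did not change with age either, with 10 of 17 higher, a median of 0.02 and 0 past the threshold.

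**Figure D5:**
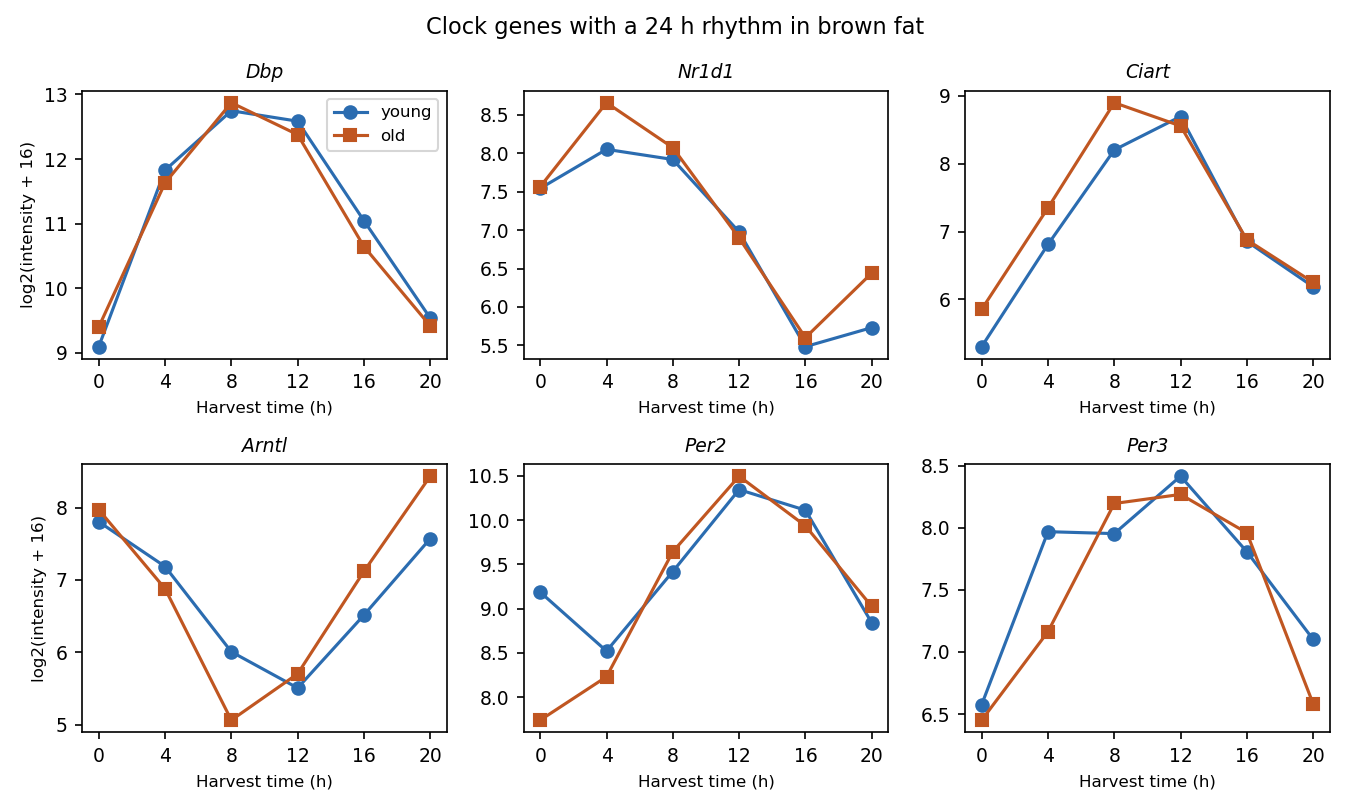
log2(intensity + 16) (vertical axis) at each harvest time in h (horizontal axis) for the 6 clock genes with a rhythm past the threshold, young in blue circles and old in orange squares, 1 array per point. The curves of both ages run together, with Dbp and Ciart highest at 8 or 12 h and Arntl lowest at 8 or 12 h.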

How the data were processed

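The values are the authors' deposited probe intensity values on a linear scale, exported with BeadStudio per the submitters' processing notes (version not given in the sources used here). They ran from -18.1 to 40120, with 28.7 to 29.1% of the probes of an array below 0. A table of scanner signals with 144 columns was not used, because its column names match no sample label, so the slide of an array is unknown and no slide effect was tested.

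Here deposited values under 0 became 0, and log2(intensity + 16) was used throughout. Fold changes are on this scale and understate those of dim genes. Mirroring the negative values at 0 gave a noise SD of 5.35, and values above 8.80, its 95th percentile, counted as above background. Probes above background on at least 6 of 12 arrays were kept. Of 45281 probes 34885 have 1 symbol in the platform annotation, 18 several and 10378 none. Each gene is represented by its kept probe with the highest mean, and each unnamed probe stands for itself. Symbols come from that annotation, and gene neighbours and promoters from RefSeq (GRCm38.p6).

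Age was tested 2-sided by limma's moderated linear model (version 3.58.1, R version 4.3.3), with harvest time as a block, rhythm by the moderated F test of cosine and sine terms with a period of 24 h, and tissue differences on the 6 differences matched by time. Benjamini-Hochberg adjustment ran over all genes tested, with a threshold of 0.05. The number of arrays limits the precision, since 5 residual degrees of freedom remained for age. The pairing comes from the harvest times in the labels; deviations of arrays with the same time correlated at -0.036 to 0.268, over 0.1 for 3 of 6 pairs. The sample labels give intervals of 4 h and the treatment protocol 3 h; the former were used.

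Named genes are the up to 20 largest changes past the threshold with 1 sign at all times, the 10 falls with the lowest p, genes passing only without the 20 h pair, up to 4 members with the lowest p in each list, the 5 largest tissue differences each way, tested clock genes and 3 markers. Cell type markers given for single arrays, the neighbours of Ube2ql1 and Med10, and the 2 unnamed probes were chosen after their values were seen. Genes, lists and tests were chosen with earlier results of these data known. Alternatives changed the offset, the filter, the probe rule, the normalization, the variance model, the block and the harvest times.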

Additional observations from a re-analysis of the deposited data

Results flagged for a closer look

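In 11 of 78 groups of 6 arrays, from 39 genes, the highest or lowest array lay far from the other 5 by Dixon's criterion. Chance meets this criterion in about 1 of 20 groups when they are unselected and independent. Most genes here were chosen by their values on the same arrays, and they include those that passed only without the 20 h pair. All genes also share the same arrays. The count of 11 therefore cannot be set against that rate and is a description. Among the rises, Ube2ql1 read 13.6 on the young 8 h array, below 44.7 to 72.4 on the others, and Med10 read 310 on the young 4 h array, below 462 to 541. Above the rest of the young arrays lay Csprs at 20 h (81.1, others 4.26 to 16.8), Kcnj15 at 0 h (66.0, others 22.5 to 28.9) and Rspo4 at 0 h (46.2, others 12.7 to 18.3). The young 20 h array was far above the other young arrays for 4 genes that passed only without that pair: Mzb1 (690), Slpi (828), Bcl2a1d (249.8) and H2-M2 (452). On the old arrays Slpi was far above at 20 h (206, others 16.7 to 38.9) and Fcgr4 at 8 h (325, others 112 to 161).

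The change with age differed between tissues for 9 of the 18 named rises by limma on matched differences. Against inguinal fat the excess in brown fat was 2.32 for Ube2ql1 and 1.91 for Med10. Against the value fitted in liver it was 2.44 for Ube2ql1, 1.76 for Kcnj15, 1.60 for Prkcz, 1.60 for Ripk4, 1.53 for Med10, 1.18 for Cela1, 1.15 for BC051142 and 1.05 for Nap1l5, and it was -1.54 for Gpnmb, which rose more in liver. Nap1l5 lay above background on 0, BC051142 on 1, Ube2ql1 on 2 and Kcnj15 on 5 of 12 liver arrays, and Ube2ql1 on 1 of 12 inguinal fat arrays, so these differences are set against little or no signal.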

How the results depend on the processing

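The main settings called 38 genes for age, 4 and 59 for the difference from inguinal fat and liver, 35 for rhythm and 0 for a difference of rhythm (limma; 749 at an unadjusted p under 0.05). An offset of 4 gave 6, 0, 18 and 12 for the first 4 of these. An offset of 64 gave 28, of which 2 were lower in old mice, then 1, 140 and 48. No filter on dim probes gave 1, 0, 1 and 15, a filter on all arrays 23, 0, 54 and 48, and a mean-variance trend 36, 0, 0 and 57. Where the inguinal or liver count was 0 under these settings, 1624 to 3343 genes had an unadjusted p under 0.05 by limma. Every probe on its own gave 41, 4, 66 and 52, and quantile normalization within tissue kept all 4 counts. The difference of rhythm stayed at 0 genes in all of these and with 1 harvest time left out, with 480 to 1599 at an unadjusted p under 0.05.

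Leaving out 1 harvest time gave 3 to 57 genes for age (17, 3, 31, 25, 13 and 57 without 0, 4, 8, 12, 16 and 20 h), 0 to 188 against inguinal fat, 19 to 31 against liver and 7 to 25 for rhythm (7, 25, 8, 10, 11 and 7). Without the replicate block of harvest time 29 genes were called for age, or 30 with cosine terms, and 14 and 88 for the tissue differences. Leaving out both the 4 h and 20 h pairs, chosen after seeing the data, gave 30, 31 and 2 for age and the tissues. H2-M2 turned sign, to -0.18 with an offset of 64 and to -0.019, -0.054 and -0.040 without the 0, 8 or 12 h pair. The cause of these shifts was not tested. Of the 18 named rises over these alternatives, 174 fits kept the call, 110 lost it and 0 turned sign. Ube2ql1, Med10 and Dnajb13 kept it in 15 of 16, and Uchl1 in 1 of 15. Signal close to background limits the dim genes, and 21 of the 38 calls lay above background on all 12 arrays.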
